A study of Homo sapiens with 6 samples.

Results

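The SLC25 family of mitochondrial carriers was followed through RNA immunoprecipitation followed by sequencing (RIP-seq) of 2 cytoplasmic poly(A)-binding proteins, PABPC1 and PABPC4. Members were all genes whose symbol in both deposited tables is SLC25A followed by a number, a rule that uses no measured value, and it found 48 of 58302 genes. Of these, 42 had at least 1 read in some library and 6 had none (SLC25A2, SLC25A21, SLC25A31, SLC25A34, SLC25A48 and SLC25A52). The cells were HepG2, an established line of human hepatocellular carcinoma, kept in DMEM with serum and antibiotics. There were 3 groups of 2 libraries each. PABPC1 RIP was made with a Proteintech antibody from cells with the genotype PABPC1 overexpressed, and PABPC4 RIP with a Proteintech antibody from cells with the genotype PABPC4 overexpressed. The control was anti-IgG (Sigma-Aldrich), with replicate 1 from the PABPC1-overexpressing cells and replicate 2 from the PABPC4-overexpressing cells. No group had unmodified HepG2 cells, and none was an input library, so a RIP level mixes how much of an mRNA a cell holds with how much of it came down. In such bulk samples, fewer cells with an mRNA and less of it per cell cannot be told apart. The labels do not say that replicates came from separate cultures.

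SLC25 proteins are carriers of the inner mitochondrial membrane that exchange nucleotides, phosphate, amino acids, carboxylates, cofactors and iron between cytosol and matrix, apart from a few members in other membranes. They are encoded in the nucleus, translated in the cytosol and imported through the TOM and TIM22 complexes. In liver cells they serve the urea cycle, gluconeogenesis, fatty acid oxidation and haem synthesis. Cytoplasmic poly(A)-binding proteins coat the poly(A) tail of mRNAs in general, and PABPC1 is also known for its link to mRNAs that begin with a terminal oligopyrimidine tract.

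The start of the transcript is shown for members with many reads or with a role in ATP export, SLC25A37 not included. It is shown because of the known link of PABPC1 to mRNAs with a tract of pyrimidines there. Each line gives 15 bases before and 15 bases from the annotated start in RefSeq (GRCh38.p14), 5′ to 3′ on the gene's strand. Capitals mark a run of C and T that begins with C at the start itself.
SLC25A6 (chrX:1392099-1392128, minus strand): cggtggctgctccgtCCTTTCggtccaggc
SLC25A5 (chrX:119468429-119468458, plus strand): atttgcttcgctccgCCCCgcagcgccgga
SLC25A4 (chr4:185143251-185143280, plus strand): tgcgggccaggcggcggccccctagcgtcg
SLC25A3 (chr12:98593671-98593700, plus strand): cggaggacgtccggcCTCTgtgagccgcaa
SLC25A36 (chr3:140941821-140941850, plus strand): cgctgcgtcgctttcagcctctggtgaagg
SLC25A39 (chr17:44324809-44324838, minus strand): cccttggctgctttcggcgtcggcctaggt
Only SLC25A6 among these 6 had a run of at least 5 pyrimidines that begins with C at the annotated start itself. Runs of pyrimidines elsewhere in the bases shown were not counted. Over the 40 members matched by symbol, 4 of 51 annotated starts had such a run (7.84%), against 1429 of 35116 starts of all genes (4.07%). The 4 starts belong to SLC25A6, at both of its annotated copies, and to SLC25A21 and SLC25A22, which had no read and 8 reads in all.

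The tables held folds and p-values, and whole reads per library were recovered from them. The recovery does not say which library carries which replicate number, nor which IgG library came from which cells, so the 2 libraries of a group are called A and B by their size. The PABPC4 libraries were the deepest, at 850190 and 841327 reads. Those of PABPC1 held 289217 and 277552, and the IgG libraries, pooled by the authors as the control of either table, held 133030 and 94235. Reads from recovered nuclear-encoded genes made up 38.5% and 40.5% of the IgG libraries, 53.1% and 58.6% of the PABPC1 libraries and 78.4% and 76.99% of the PABPC4 libraries, so a ratio scaled by library totals holds this shift of all nuclear-encoded RNA as well. All 10 hepatocyte and hepatocellular carcinoma markers looked up, such as ALB and AFP, had reads in both RIPs. PABPC4's own mRNA had 110.6 and 154.9 reads per 1000000 reads of the library (RPM) in PABPC1 RIP, 162.3 and 183.0 in PABPC4 RIP and 75.2 and 42.4 in IgG. PABPC1's own mRNA had 594.7 and 634.1 RPM in PABPC1 RIP, 590.5 and 676.3 in PABPC4 RIP and 285.6 and 318.4 in IgG. By library totals it was thus not higher in the RIP from cells labelled as overexpressing it. Of nuclear-encoded reads it held the larger share in PABPC1 RIP, with 172 of 153638 and 176 of 162784. In PABPC4 RIP it held 502 of 666404 and 569 of 647700. Its order between the RIPs therefore depends on the denominator. PABPC4's own mRNA held 32 of 153638 and 43 of 162784 nuclear-encoded reads in PABPC1 RIP. In PABPC4 RIP it held 138 of 666404 and 154 of 647700, and by this share the 2 RIPs overlapped. No input library shows how far PABPC1 or PABPC4 was overexpressed.

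One SLC25 mRNA, SLC25A36, was called higher in PABPC4 RIP than in IgG, and no other member was called in any comparison. In the authors' deposited table for PABPC4, 1 of the 42 members with a p-value was called higher at an adjusted p under 0.05, where 5.54% of all genes tested were, and 0 were called lower, where 0.9% of all genes were. In the authors' deposited table for PABPC1, 0 of 40 members were called higher, where 1.34% of all genes were, and 0 lower, where 0.194% were. At an unadjusted p under 0.05 the authors' deposited tables held 1 member each. A fit of the reads per library with limma called 0 of 15 members tested for PABPC1 (2 at an unadjusted p under 0.05) and 1, again SLC25A36, for PABPC4 (3 at an unadjusted p under 0.05). In that fit 0.527% of genes were called higher and 0.427% lower for PABPC1, and 2.36% higher and 1.63% lower for PABPC4. It uses the same reads, so its call of SLC25A36 is no separate evidence. Its filter asked for 10 reads in at least 2 libraries, and only SLC25A6 reached this in IgG (15 and 14 reads). The other members tested, SLC25A36 included, needed RIP reads to pass. IgG depth was low for this family: 13 of the 41 members with recovered library reads had 0 IgG reads, 16 had 1 to 3, and only 2 had at least 10.

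SLC25A36, a carrier of pyrimidine nucleotides into mitochondria (ENSG00000114120, chr3:140941836-140980995), had 55 and 50 reads in PABPC4 RIP, 13 and 11 in PABPC1 RIP, and 0 and 1 in IgG. As RPM this was 64.7 and 59.4 in PABPC4 RIP, 44.9 and 39.6 in PABPC1 RIP and 0 and 10.6 in IgG. All 4 RIP libraries lay above both IgG libraries, and the 2 libraries of each RIP were close to each other. Among members with at least 20 reads, SLC25A3, SLC25A17 and SLC25A32 also had all RIP libraries above both IgG libraries. How many of all genes do so was not counted, and RPM holds the shift of all nuclear-encoded RNA. The fold in the authors' deposited table was 11.6 for PABPC4 (adjusted p 0.0172, their chi-square test) and 7.90 for PABPC1 (adjusted p 0.340). The pooled ratio of RPM was 14.1 for PABPC4, with an exact 95% interval from 2.48 to 562, and 9.62 for PABPC1, from 1.57 to 396. These intervals cover counting error only, and their width comes from the single IgG read. In the limma fit, where each library counts as a replicate, the log2 fold was 2.20 (SE 0.64, adjusted p 0.0439) for PABPC4 and 2.13 (SE 0.69, adjusted p 0.147) for PABPC1. PABPC4 RIP over PABPC1 RIP was 0.07 on the log2 scale (SE 0.33, limma adjusted p 0.956), so no difference between the 2 RIPs was detectable for this mRNA. The call for PABPC4 needed 88 reads against 1 IgG read, and 105 were measured. The chi-square call was lost when nuclear-encoded totals (adjusted p 0.569) or median-of-ratios scaling (adjusted p 0.445) replaced the library totals, and without IgG library A (adjusted p 0.911). Without IgG library B no IgG read is left, and the gene was not called either. Over all alternatives that gave a value, the adjusted p ran from 0.00133 (Fisher's exact test) to 0.911.

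**Figure D1:**
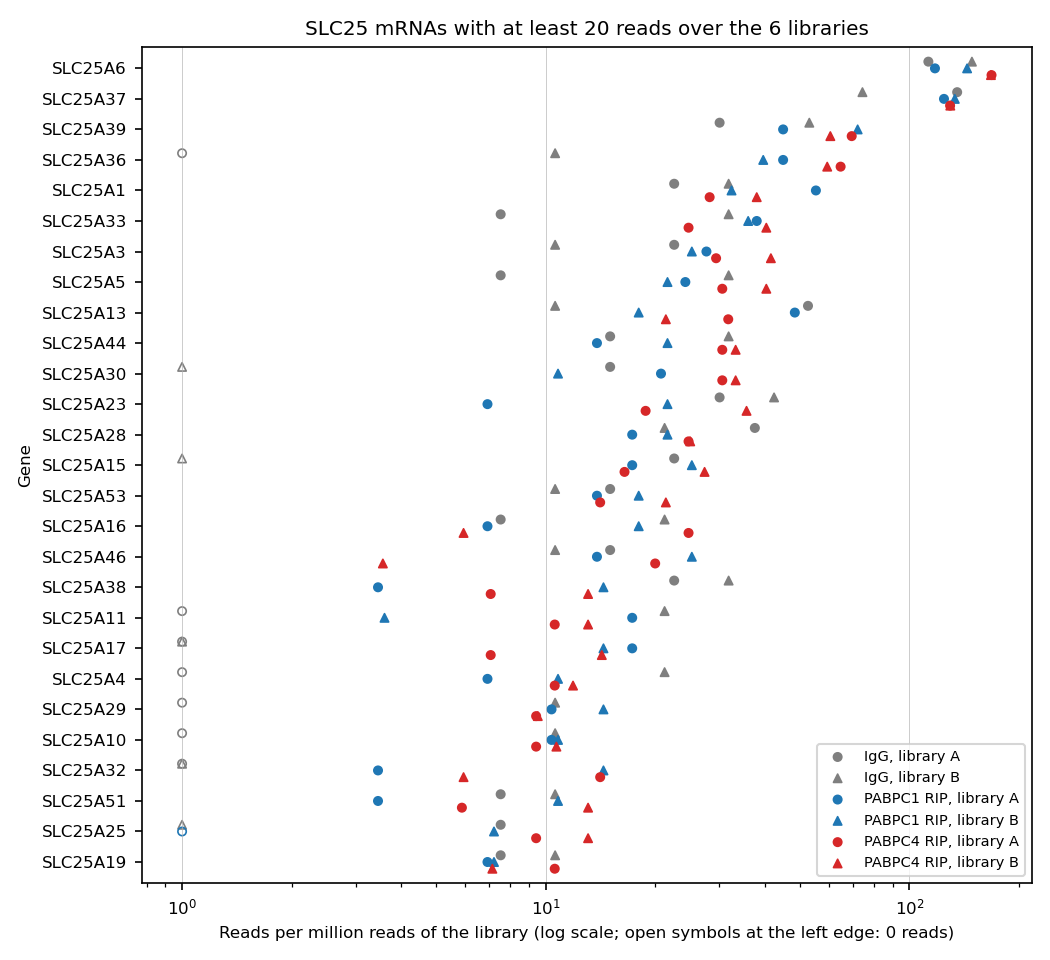
RPM in each library (log scale) for the 27 SLC25 mRNAs with at least 20 reads over the 6 libraries, with 1 symbol per library and open symbols for 0 reads. For SLC25A36 the IgG libraries sit at 0 and 10.6 and all RIP libraries at 39.6 or above. For SLC25A3, SLC25A17 and SLC25A32 all RIP libraries also lie above both IgG libraries, narrowly so for SLC25A3 (25.2 or above against at most 22.6).

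The 41 members with recovered library reads held 457 reads in PABPC1 RIP, 1575 in PABPC4 RIP and 146 in IgG. The 4 most-read members, SLC25A6, SLC25A37, SLC25A39 and SLC25A36, held 45.3% of them. The median member with reads had 26 reads over the 6 libraries, close to the 23 of all genes. As a share of nuclear-encoded reads, SLC25 mRNA made up 0.164% and 0.163% of the IgG libraries, 0.145% and 0.144% of the PABPC1 libraries and 0.116% and 0.124% of the PABPC4 libraries. The groups did not overlap, and PABPC4 was lowest. Pooled, the share was 0.163% in IgG (exact 95% interval 0.138% to 0.192%), 0.144% in PABPC1 (0.131% to 0.158%) and 0.120% in PABPC4 (0.114% to 0.126%). As a share of all reads the order was turned around, with 0.0642% in IgG (0.0542% to 0.0755%), 0.0806% in PABPC1 (0.0734% to 0.0884%) and 0.0931% in PABPC4 (0.0886% to 0.0978%). The direction for the family as a whole therefore depends on the denominator.

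**Figure D2:**
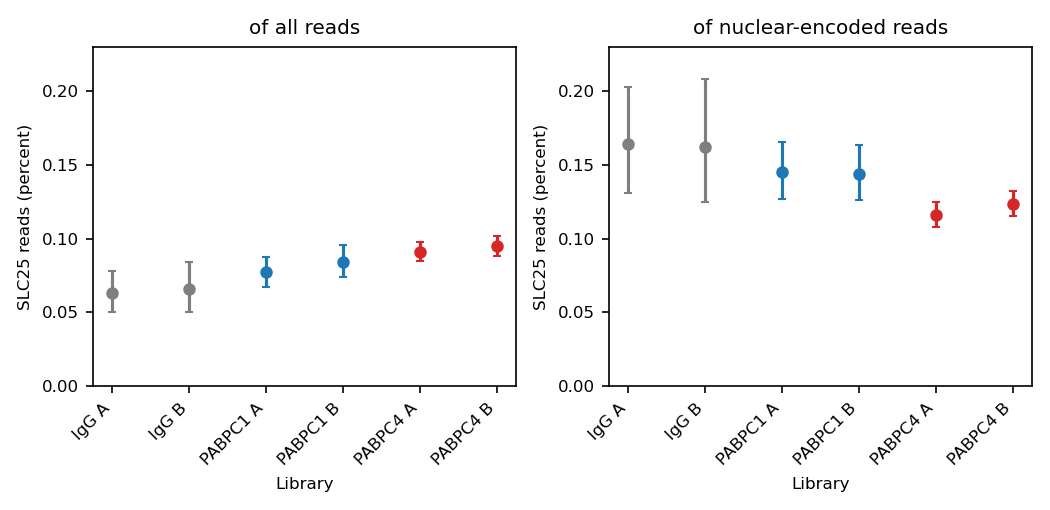
Percent of all reads (left) and of nuclear-encoded reads (right) that are SLC25 mRNA in each of the 6 libraries, with exact 95% intervals that cover counting error only. The share is highest in PABPC4 RIP on the left (0.0931% pooled) and lowest there on the right (0.120% pooled).

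The ADP/ATP carriers, which exchange ADP for ATP across the inner membrane, held 490 reads and had no call with either antibody. SLC25A6 (ENSG00000169100, chrX:1386152-1392113), the most-read member, had 143 and 141 reads in PABPC4 RIP, 34 and 40 in PABPC1 RIP and 15 and 14 in IgG. This was 168.2 and 167.6 RPM in PABPC4 RIP, 117.6 and 144.1 in PABPC1 RIP and 112.8 and 148.6 in IgG. In RPM, PABPC4 RIP lay above the other groups, and PABPC1 RIP overlapped with IgG. How many of all genes do so was not counted. Among genes with at least 20 summed reads, the median log2 ratio of PABPC4 over IgG by library totals was 0.99, against 0.36 for SLC25A6. The pooled ratio over IgG was 1.32 for PABPC4 (exact 95% interval 0.896 to 2.001) and 1.02 for PABPC1 (0.658 to 1.63), and under nuclear-encoded or median-of-ratios scaling both lay below 1. Depth was less limiting here: 384 PABPC4 reads would have been called, a ratio of 1.78, and 284 were measured.

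SLC25A5 (ENSG00000005022, chrX:119468444-119471396), the form typical of dividing cells, had 26 and 34 reads in PABPC4 RIP, 7 and 6 in PABPC1 RIP and 1 and 3 in IgG. Its pooled ratio over IgG was 2.02 for PABPC4 (exact 95% interval 0.747 to 7.64) and 1.30 for PABPC1 (0.403 to 5.49). Neither interval excludes 1. SLC25A4 (ENSG00000151729, chr4:185143266-185150382), the form typical of heart and skeletal muscle, had 9 and 10 reads in PABPC4 RIP, 2 and 3 in PABPC1 RIP and 0 and 2 in IgG. Of the 4 muscle markers looked up, ACTA1, CKM and MYH7 had no read in any library and TNNT2 had 1, in PABPC1 RIP. SLC25A31, the form of the testis, had no read in any library. RPKM divides reads by library size and by the gene length behind the folds. As RPKM, SLC25A6 stood at 77.6 in PABPC4 RIP, SLC25A5 at 23.7 and SLC25A4 at 2.32 (means of the 2 libraries). In IgG the order was the same, at 60.4, 13.1 and 2.19. The lengths used were 2164, 1500 and 4844 nt. They were not compared with the transcripts present in these cells, and levels between genes depend on them.

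SLC25A3, the phosphate carrier that supplies ATP synthase (ENSG00000075415, chr12:98593686-98606367), had 25 and 35 reads in PABPC4 RIP, 8 and 7 in PABPC1 RIP and 3 and 1 in IgG. Its summed PABPC4 and IgG reads equal those of SLC25A5, so its pooled ratio for PABPC4 was the same 2.02 (0.747 to 7.64), and 1.504 for PABPC1 (0.479 to 6.22). A call against 4 IgG reads would have taken 126 PABPC4 reads, and 60 were measured. The length behind its fold is 8896 nt, against 1500 nt for SLC25A5. Equal reads thus gave SLC25A3 the lower level per kilobase of these lengths (3.99 against 23.7 in PABPC4 RIP). Whether the 2 mRNAs differ so in length in these cells was not tested.

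The carriers of carboxylates, aspartate and glutamate, which move citrate and reducing equivalents across the membrane, had no call, and their intervals were wide. SLC25A1, the citrate carrier, had 24 and 32 reads in PABPC4 RIP, 16 and 9 in PABPC1 RIP and 3 and 3 in IgG. SLC25A13, the aspartate-glutamate carrier of liver, had 27 and 18, 14 and 5, and 7 and 1 reads in the same order, and its IgG libraries spanned the RIP libraries (52.6 and 10.6 RPM). For the di- and tricarboxylate carriers together the pooled ratio over IgG was 1.39 for PABPC4 (exact 95% interval 0.701 to 3.13) and 1.65 for PABPC1 (0.781 to 3.88). For the aspartate and glutamate carriers it was 0.940 (0.465 to 2.15) and 1.07 (0.480 to 2.61).

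The carriers of nucleotides and cofactors stood above IgG by pooled reads, and SLC25A36 held 105 of their 261 PABPC4 reads. The 8 members with reads had 261 PABPC4, 82 PABPC1 and 14 IgG reads, a pooled ratio of 2.505 for PABPC4 (exact 95% interval 1.47 to 4.65) and 2.35 for PABPC1 (1.32 to 4.48). With nuclear-encoded totals the ratios were 1.27 and 1.65. Without SLC25A36, a removal chosen after its values were seen, they were 1.61 and 1.79 by library totals and 0.816 and 1.26 by nuclear-encoded totals. SLC25A33, the other pyrimidine nucleotide carrier, had 21 and 34 reads in PABPC4 RIP, 11 and 10 in PABPC1 RIP and 1 and 3 in IgG, with deposited folds of 1.65 and 1.88 in the authors' deposited tables (both adjusted p 1). SLC25A17, a peroxisomal carrier of coenzyme A and other nucleotides, and SLC25A32, a folate carrier, had 0 IgG reads beside 18 and 17 PABPC4 reads. SLC25A16, linked to coenzyme A transport, split its PABPC4 reads 21 to 5 between libraries A and B, so that its 2 PABPC4 libraries lay on either side of PABPC1 RIP. SLC25A46, a protein of the outer membrane, split them 17 to 3, and its PABPC1 libraries stood at 13.8 and 25.2 RPM.

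The iron and haem-linked carriers showed no call with library totals. SLC25A37, mitoferrin 1, which brings iron to haem synthesis in red cell precursors, had 110 and 109 reads in PABPC4 RIP, 36 and 37 in PABPC1 RIP and 18 and 7 in IgG. In the same order this was 129.4 and 129.6, 124.5 and 133.3, and 135.3 and 74.3 RPM. The RIP libraries lay between the 2 IgG libraries, and the pooled ratio over IgG was 1.18 for PABPC4 (exact 95% interval 0.776 to 1.86) and 1.17 for PABPC1 (0.734 to 1.93). SLC25A28, mitoferrin 2, the more widespread form, had a ratio of 0.806 for PABPC4 (0.359 to 2.13) and 0.630 for PABPC1 (0.223 to 1.92). Its log2 fold for PABPC4 in the limma fit was -1.23 (SE 0.53, adjusted p 0.206), which did not pass the threshold.

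SLC25A39, which brings glutathione into mitochondria (ENSG00000013306, chr17:44319628-44324823), had 59 and 51 reads in PABPC4 RIP, 13 and 20 in PABPC1 RIP and 4 and 5 in IgG. Its pooled ratio was 1.64 for PABPC4 (exact 95% interval 0.834 to 3.69) and 1.47 for PABPC1 (0.688 to 3.49). SLC25A38, a glycine carrier needed for haem in red cell precursors, had 6 and 11 reads in PABPC4 RIP, 1 and 4 in PABPC1 RIP and 3 and 3 in IgG, and both RIPs lay below IgG in RPM. Its pooled ratio was 0.381 for PABPC4 (0.143 to 1.18), and it was called lower only when nuclear-encoded totals were used. Blood markers moved with the IgG group: 4 of 8 were called lower in PABPC1 RIP and 6 of 8 in PABPC4 RIP in the authors' deposited tables, where 0.194% and 0.9% of all genes were. Their summed level was 3661 and 3746 RPM in IgG, 1335 and 1452 in PABPC1 RIP and 753 and 600.2 in PABPC4 RIP, and none of the 8 was at 0 in a group. Fibroblast markers moved the same way, with 1 of 5 called lower for PABPC1 and 3 of 5 for PABPC4. Their summed level was 165.4 and 148.6 RPM in IgG, 44.9 and 54.0 in PABPC1 RIP and 21.2 and 11.9 in PABPC4 RIP. Of 3 endothelial markers, VWF had no read in any library. CDH5, whose reads were not settled, was listed at 19.7-fold for PABPC4 and not called. In the authors' deposited table for PABPC4, PECAM1 was called lower, at 0.334-fold (adjusted p 0.0314). It was 1 of 2 endothelial markers with a p-value there, where 0.9% of all genes were called lower. The part of such RNA in the values of SLC25A37, SLC25A38, SLC25A39 and SLC25A28 was not tested.

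The remaining roles had few reads. The calcium-regulated carriers of ATP-Mg and phosphate, such as SLC25A23, had a pooled ratio over IgG of 0.916 for PABPC4 (exact 95% interval 0.484 to 1.91) and 0.474 for PABPC1 (0.196 to 1.17). In the limma fit SLC25A23 had a log2 fold over IgG of -1.85 for PABPC1 (SE 0.69, adjusted p 0.227) and -1.40 for PABPC4 (SE 0.54, adjusted p 0.147), neither past the threshold. The uncoupling-protein-like members had 68 PABPC4 reads and 2 IgG reads, a ratio of 4.57 by library totals (1.22 to 38.5) and 2.31 by nuclear-encoded totals, of which SLC25A30 held 54 PABPC4 and both IgG reads. SLC25A30 itself had a deposited fold of 4.23 in the authors' deposited table for PABPC4 (adjusted p 0.526) and was not called. The carriers of ornithine and basic amino acids, which serve the urea cycle, had a ratio of 1.78 for PABPC4 (0.656 to 6.77). SLC25A20, the carnitine-acylcarnitine carrier, had 8 reads in all, and SLC25A47, known from liver, had 5. Reads of SLC25A18, a glutamate carrier, could not be settled beyond 0 in PABPC1 RIP and IgG.

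Large folds listed for SLC25 mRNAs came from genes without IgG reads. The deposited fold adds 0.005 RPKM to the IgG mean, and where IgG has no read the listed fold is the RIP level divided by this constant. In the authors' deposited table for PABPC4, the fold was 549 for SLC25A32, 534 for SLC25A17 and 430.4 for SLC25A27, with adjusted p of 0.904, 0.866 and 1. The 13 members with 0 IgG reads had at most 18 PABPC4 reads and 9 PABPC1 reads, and a call against 0 IgG reads would have taken 73 and 32. Against a floor of 3 IgG reads over the group, the ratio of SLC25A17 was 1.20 in PABPC1 RIP. This is not a lower bound, since its exact interval begins at 0.791. For PABPC4 neither SLC25A17 nor SLC25A32 reached a ratio of 1 against that floor.

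**Figure D3:**
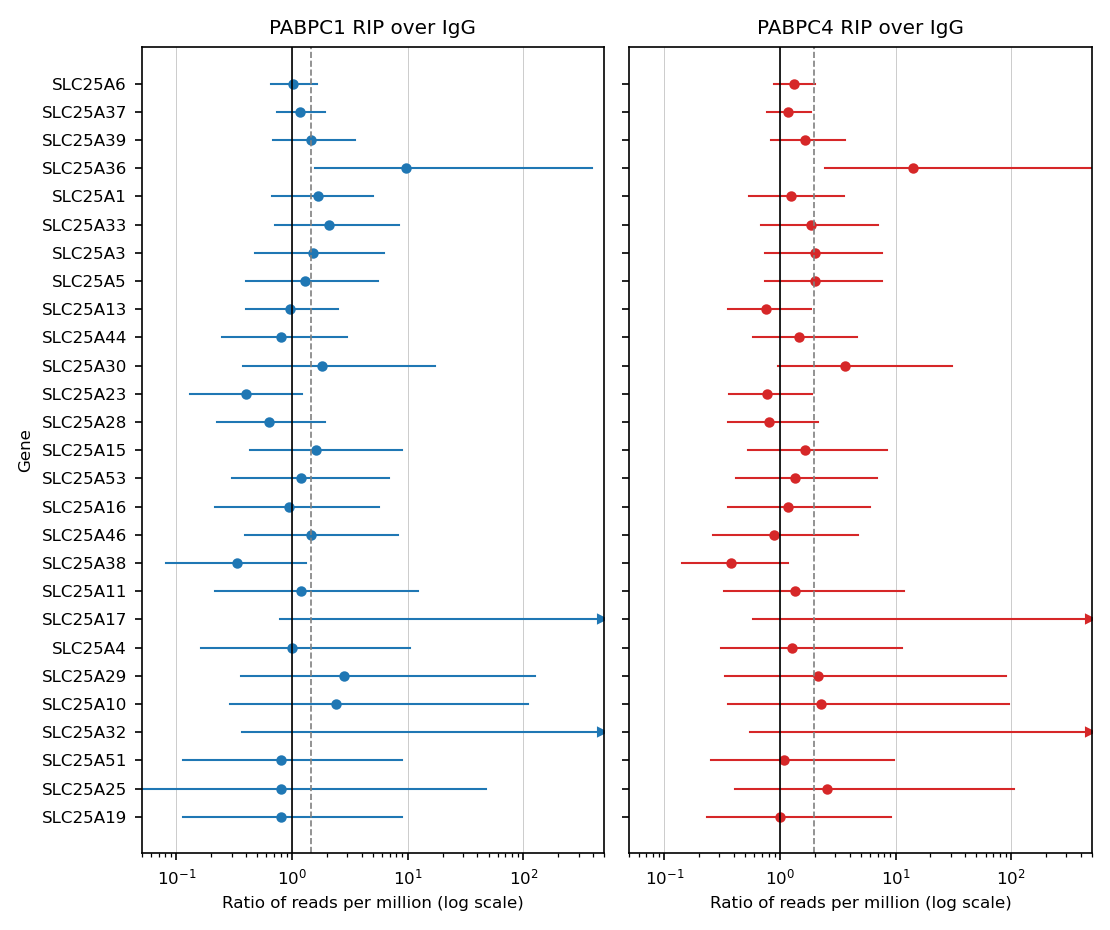
Pooled ratio of RPM, RIP over IgG, with exact 95% intervals (log scale) for the same 27 SLC25 mRNAs, PABPC1 on the left and PABPC4 on the right; arrowheads mark genes with 0 IgG reads. The solid line is a ratio of 1 and the dashed line the median of all genes with at least 20 reads, and only the intervals of SLC25A36 (1.57 to 396 and 2.48 to 562) lie above 1.

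Across members with at least 20 reads summed over both sides and a read on each, the median log2 ratio over IgG was 0.49 for PABPC1 (7 of 48 members), against 0.56 over all such genes. For PABPC4 it was 0.36 (21 members) against 0.99, and 4 of the 21 lay above the median of all genes. That count was 7 of 21 without PABPC4 library A and 6 of 18 without IgG library B. Members reach 20 reads mostly through the RIP side of each comparison, so these medians describe the well-covered members only. A choice by RIP reads can raise a ratio over IgG, for members and for all genes alike. Relative to nuclear-encoded totals the medians were -0.01 for PABPC1, against 0.05 for all genes, and -0.61 for PABPC4, against 0.01. Scaling also turned the split of calls over all genes, from 235 higher and 34 lower for PABPC1 to 26 and 86 with nuclear-encoded totals. For PABPC4 it went from 1188 and 193 to 111 and 456.

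The direct comparison of PABPC4 RIP with PABPC1 RIP asked whether the level of a carrier mRNA differed between the 2 RIPs, and no member was called. The RIPs differ in the protein, in the antibody and in the protein overexpressed by the cells. Without an input library, these cannot be told apart. The limma fit tested 15 members and called 0, where 2.41% of all genes tested were called higher in PABPC4 RIP and 2.06% lower, and 2 members had an unadjusted p under 0.05. These were SLC25A1, with a log2 fold of -0.84 (SE 0.36, limma adjusted p 0.210), and SLC25A37, with -0.45 (SE 0.21, limma adjusted p 0.279). Of the 15 members, 10 passed the filter of 10 reads in 2 libraries only through the PABPC4 libraries, and 5 had at least 10 reads in both PABPC1 libraries. SLC25A6 stood at -0.09 on the log2 scale (SE 0.20), SLC25A39 at -0.29 (SE 0.30), SLC25A3 at -0.11 (SE 0.40) and SLC25A5 at 0.10 (SE 0.43). Each of these differences was smaller than its SE. By library totals the pooled ratio of PABPC4 over PABPC1 had an exact 95% interval that held 1 for all 41 members with recovered library reads, with 1.29 (0.992 to 1.68) for SLC25A6. For summed reads the interval lay above 1 for the whole family at 1.15 (1.04 to 1.28), the ADP/ATP carriers at 1.32 (1.05 to 1.68), the ATP-Mg carriers at 1.93 (1.06 to 3.80) and the uncoupling-protein-like members at 1.90 (1.02 to 3.85). By nuclear-encoded totals these ratios were 0.830, 0.95, 1.39 and 1.36. Among genes with at least 20 reads summed over both RIPs and a read in each, the median log2 ratio by library totals was 0.45. For the 26 members among them it was 0.18, and 6 of these lay above the median of all genes. Over all genes the split of calls in the limma fit was 192 higher and 164 lower, and 1111 and 53 when library totals were used.

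**Figure D4:**
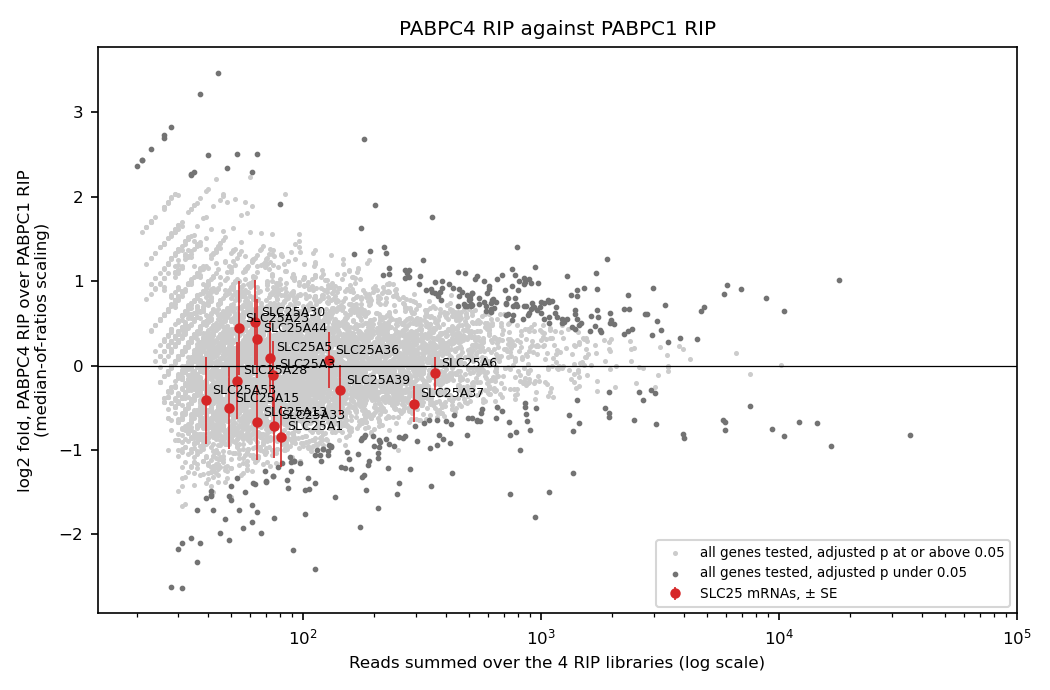
Log2 fold of PABPC4 RIP over PABPC1 RIP (limma, median-of-ratios scaling) against reads summed over the 4 RIP libraries (log scale), for the 7963 genes tested in grey and 15 SLC25 mRNAs in red with bars of 1 SE. The SLC25 mRNAs lie among the other genes at their depth, from -0.84 for SLC25A1 to 0.51 for SLC25A30.

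Among 45 related genes outside the family, 1 of 42 with a p-value was called higher for PABPC1 and 1 of 41 for PABPC4 in the authors' deposited tables, and 0 lower. Over all genes 1.34% and 5.54% were called higher. This was TOMM20, a receptor of the outer-membrane import complex, with 167 and 188 reads in PABPC1 RIP, 492 and 468 in PABPC4 RIP and 51 and 26 in IgG. Its fold was 1.90 for PABPC1 (adjusted p 0.000187) and 1.72 for PABPC4 (adjusted p 0.000485) in the authors' deposited tables. Its pooled ratio of reads scaled by nuclear-encoded totals was 1.30 for PABPC1 and 0.848 for PABPC4, so its direction for PABPC4 depends on the scaling. TOMM40, the channel of the same complex, had 26 PABPC1, 74 PABPC4 and 1 IgG reads. Its folds in the authors' deposited tables were 12.1 and 11.6, and it was not called (adjusted p 0.269 and 0.103). Carriers with other symbols (UCP1, UCP2, UCP3, MTCH1 and MTCH2), mitochondrial channels such as VDAC1 and enzymes on either side of a carrier such as CPS1 and GOT2 had 0 calls.

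Genes whose 6 library values lay near those of SLC25A6, among 1849 genes with at least 200 reads, included TM9SF3, RPS7, SH3GL1 and EEF2. Their distances on the centred log2 scale ran from 0.1996 for TM9SF3 to 0.209 for EEF2. The length behind the folds and the ratio over IgG had a Spearman's rho of 0.43 over 7 members for PABPC1 and 0.24 over 21 members for PABPC4. Over all genes it was 0.054 and 0.052, as a description across genes that share the same libraries. Near-identical copies and overlapping transcripts held few reads. Of 40 SLC25 pseudogenes in the tables, 6 had reads, which could not be settled for 4 of them, and the other two held 5 reads in PABPC1 RIP, 5 in PABPC4 RIP and 0 in IgG. The 4 antisense genes named after members held 4, 32 and 2 reads, and without a stated strand setting reads of a gene and its antisense partner cannot be told apart.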

How the data were processed

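RIP-seq was measured in 6 HepG2 libraries. Per the file headers, the authors deposited for each RIP against IgG a fold (a linear ratio), a p-value and a Benjamini-Hochberg adjusted p; 0 columns held single libraries. Named in the submitters' processing notes are STAR 2.7.10a, Bowtie2 2.4.1, featureCounts 2.0.1, GRCh38 and hg38. The strand setting of the counting is not given there, in the labels or in the file headers. The deposited p-values equal Yates-corrected chi-square values of summed reads, which fixed whole reads per gene; folds and whole-number gene lengths (within 0.001 nt) split them into libraries for 17857 of 22607 genes with a read. Recomputed p-values matched for 40 and 41 members. The nuclear-encoded totals sum only genes split into libraries, without the mitochondrially encoded ones. Outside them are 4281 genes with ambiguous reads and 465 with reads known only as group sums. Reads of 4 further genes, among them the mitochondrial rRNAs, were not recovered and are outside them too. PABPC4 over PABPC1 was fitted with limma 3.58.1 (voom, R 4.3.3) on 7963 genes that reached 10 reads in at least 2 libraries, with the 3 groups as coefficients and median-of-ratios size factors (residual degrees of freedom 3, prior 32.6), and adjusted p-values follow Benjamini-Hochberg; the same fit gave the limma values against IgG. Since separate cultures are not stated, p-values of this fit may reflect technical spread alone. Ratio and share intervals are exact (Clopper-Pearson, 95%) and cover counting error only. The recovery and fit were tested on simulated data. Members called in any comparison, members with at least 100 reads, the ADP/ATP carriers and SLC25A3 were named with all values; other members named were chosen after their values were seen. Members and lists were chosen with earlier results of these data known. Alternatives covered scaling, test, low-read filter, depth and leaving out each library. One gene that the rule on likeness to SLC25A6 names is not reported here.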

Additional observations from a re-analysis of the deposited data

How the results depend on the processing

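No paired analysis was possible because the recovered libraries carry no replicate numbers. SLC25A36 was called for PABPC4 over IgG with a log2 ratio of 3.55; under nuclear-encoded totals it was 2.61, under median-of-ratios scaling 2.79 and without IgG library A 2.55, and none of these was called. The count of called members for PABPC4 over IgG was 1, and 0 under median-of-ratios scaling and from 0 to 1 with a library left out; for the other comparisons it was 0 under every alternative run. Under nuclear-encoded totals the 1 called member was SLC25A38. The family's median log2 ratio was, for PABPC1 over IgG, 0.49, with -0.011 under nuclear-encoded totals, 0.12 under median-of-ratios scaling, 0.15 with at least 50 reads and 0.35 to 0.61 with a library left out. For PABPC4 over IgG it was 0.36, with -0.61, -0.45, 0.55 and 0.15 to 0.56. For PABPC4 over PABPC1 it was 0.18, against 0.45 over all genes with as many reads. Under nuclear-encoded totals it was -0.27, under median-of-ratios scaling -0.24, and with a library left out 0.0050 to 0.47. Over all genes, this last fit called 356 genes, and 6 and 11 without PABPC1 library A or B. With all reads as denominator the shares were 0.0806% for PABPC1, 0.0931% for PABPC4 and 0.0642% for IgG.

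Uncalled named members changed sign as follows. For PABPC1 over IgG, nuclear-encoded totals gave -0.25 for SLC25A5, -0.50 for SLC25A6, -0.21 for SLC25A37 and -0.011 for SLC25A39; median-of-ratios scaling gave -0.11, -0.37 and -0.097 for SLC25A5, SLC25A6 and SLC25A37, and limma -0.063, -0.38 and -0.11. For PABPC4 over IgG, nuclear-encoded totals gave -0.86 for SLC25A4, -0.10 for SLC25A5, -0.61 for SLC25A6, -0.68 for SLC25A37 and -0.32 for SLC25A39; median-of-ratios scaling gave -0.68, -0.45, -0.53 and -0.16 for SLC25A4, SLC25A6, SLC25A37 and SLC25A39; limma gave -0.048 for SLC25A3, -0.47 for SLC25A6, -0.56 for SLC25A37 and -0.23 for SLC25A39. For PABPC4 over PABPC1, library totals gave 0.33 for SLC25A3, 0.36 for SLC25A6 and 0.16 for SLC25A39. With a library left out, values for PABPC1 over IgG ran from -1.26 to 0.027 for SLC25A4, -0.47 to 1.61 for SLC25A5, -0.18 to 0.21 for SLC25A6 and -0.070 to 0.80 for SLC25A37. For PABPC4 over IgG they ran from -0.92 to 0.16 for SLC25A4 and -0.064 to 0.80 for SLC25A37, and for PABPC4 over PABPC1 from -0.23 to 0.017 for SLC25A3, -0.044 to 0.23 for SLC25A5 and -0.084 to 0.21 for SLC25A36. The cause was not tested.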
